A study of Mus musculus with 30 samples.

Results

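The genes described here are 9 enzymes of phosphoinositide metabolism outside the myotubularin family, chosen by name: the kinases Pi4ka and Pip5k1c, the 5-phosphatases Inpp5d, Inppl1, Inpp5k, Synj1, Synj2 and Ocrl, and the 4-phosphatase Inpp4b. They are 9 of the 36103 genes counted, and all 9 passed the filter on low counts in each of the 4 tissues. RNA was sequenced from whole gastrocnemius (a hindlimb muscle), diaphragm, heart and liver of male mice on the 129Pas background, taken at 5 weeks of age. Mtm1-/y mice, which carry a germline knock-out of the X-linked gene Mtm1 and were labelled Mtm1KO, were compared with their wild-type (WT) littermates, and no group received a treatment. Each group had 4 libraries, except that Mtm1-/y diaphragm and WT liver had 3, with 1 mouse per library within a tissue.

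Phosphoinositides are membrane lipids whose inositol ring can carry phosphates at positions 3, 4 and 5, and each phosphorylated form marks particular membranes and recruits particular proteins. Myotubularin, the product of Mtm1, removes the phosphate at position 3, and its loss causes X-linked myotubular myopathy, a severe muscle disease. Pi4ka makes phosphatidylinositol 4-phosphate at the plasma membrane, and Pip5k1c turns that lipid into the bisphosphate used at synapses, at talin-containing adhesions and in clathrin-mediated endocytosis. The 5-phosphatases take the phosphate at position 5 off again, each at its own site, and Inpp4b removes the phosphate at position 4 from a product of PI 3-kinase signaling.

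The libraries held 24873817 to 44289343 counts each. Levels are given as CPM, counts scaled to library size with TMM factors over all 30 libraries, and a gene was called where the adjusted p of edgeR's quasi-likelihood test was under 0.05. Mtm1 itself was at 20.8 to 22.3 CPM in WT and 4.31 to 5.76 CPM in Mtm1-/y gastrocnemius, and the genotypes did not overlap in any tissue. In the liver its fall of 1.60 on the log2 scale (SE 0.23) had an adjusted p of 0.365, and no gene was called there. With DESeq2, the paper lists Mtm1 among the genes changed in the liver. An absent call by this rule in the liver therefore does not show an absent change. The size of change that could be called there differs between genes, with an SE of 0.10 for Pip5k1c and 0.39 for Inpp4b. Hepatocyte markers (12 genes, led by Alb) summed to 529 to 36091 CPM in WT and 816 to 45653 CPM in Mtm1-/y diaphragm. They summed to 38.1 to 140 CPM in the gastrocnemius and to 182980 to 232750 CPM in the liver. The part of liver RNA in the comparisons that involve the diaphragm was not tested. WT diaphragm replicate 3 and Mtm1-/y diaphragm replicate 4 had the lowest hepatocyte marker sums. WT heart replicate 4 stood apart from the other WT heart libraries. Its cardiomyocyte markers summed to 65509 CPM, against 42161 to 48379 CPM in the others. Its fibroblast markers summed to 4155 CPM, against 1716 to 2667 CPM, and its Schwann cell markers to 123 CPM, against 68.9 to 96.4 CPM. Macrophage, hepatocyte and T cell sums were also highest there. Endothelial, B cell, neutrophil and white adipocyte sums lay inside the range of the others, and the skeletal muscle sum was the lowest. Counts of WT heart replicate 4 also differed most from those of the others, with a mean chi-square per gene of 146 to 239, against 17.2 to 34.3 among the others. It had the highest Pip5k1c and Inppl1 levels of the heart libraries, 62.4 and 246 CPM. In these whole tissues, fewer cells of a type and less RNA per cell cannot be told apart.

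**Figure D1:**
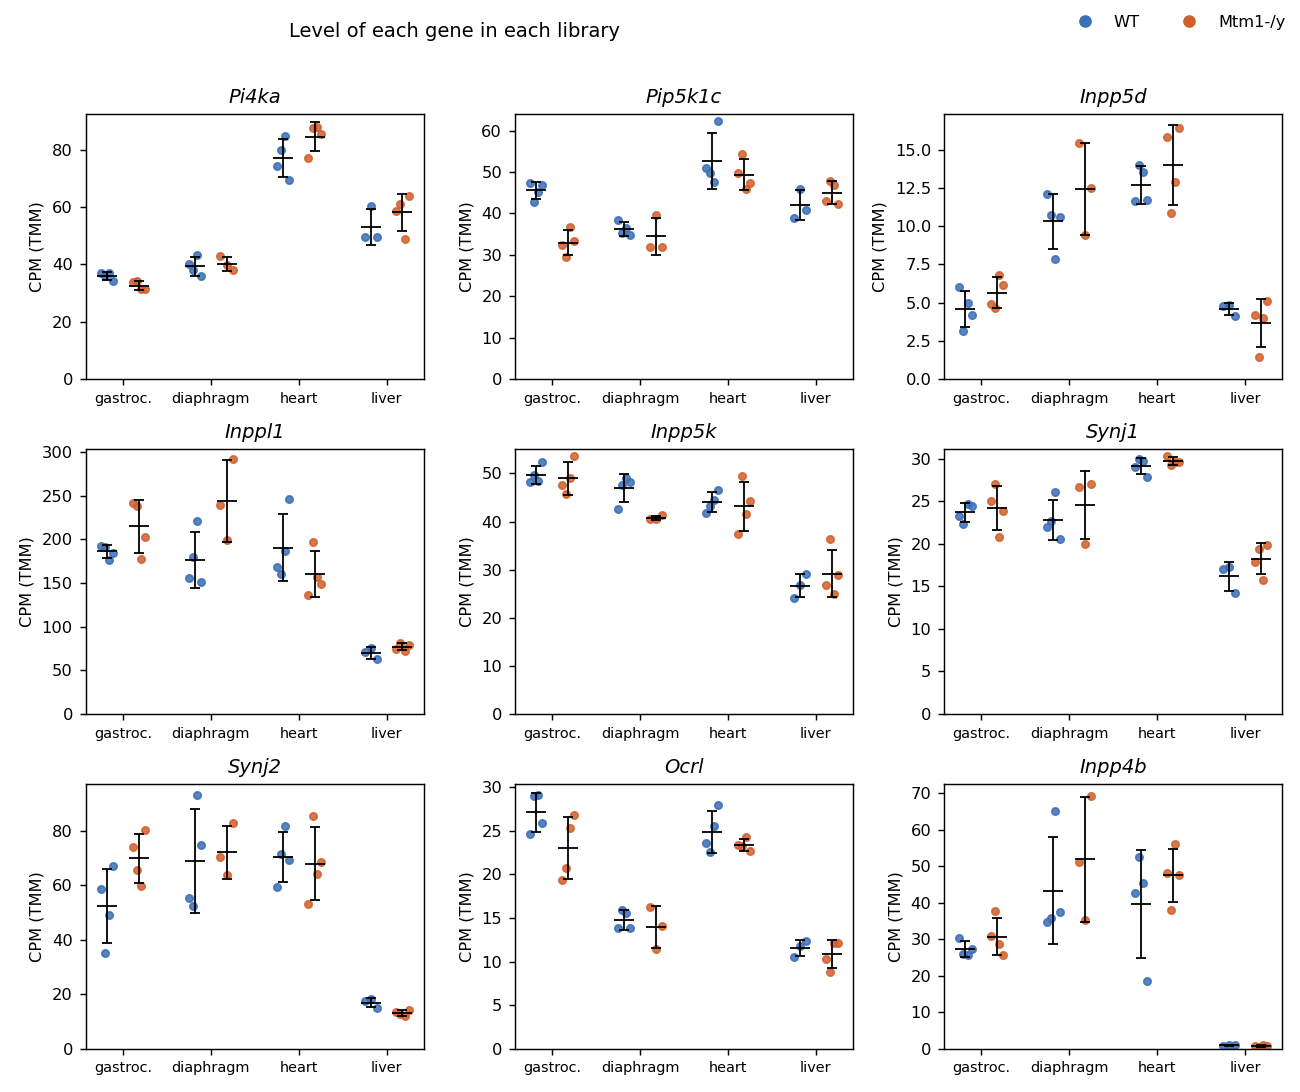
Levels of the 9 genes in CPM (vertical axes, from 0) in each library of the 4 tissues, with the mean and SD of each group in black; WT is blue and Mtm1-/y orange. Pip5k1c in the gastrocnemius is at 42.7 to 47.3 CPM in WT and at 29.4 to 36.7 CPM in Mtm1-/y, and Inpp4b is near 0 in all liver libraries.

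Pip5k1c was lower in the Mtm1-/y gastrocnemius, and it was the only 1 of the 9 genes called there. It lies on chromosome 10 from 81292963 to 81319973 on the plus strand (mm10) and encodes the gamma form of the type I PIP 5-kinases. Its level was 47.3, 42.7, 45.3 and 46.8 CPM in the WT libraries and 32.3, 29.4, 36.7 and 33.3 CPM in the Mtm1-/y libraries. All 4 Mtm1-/y libraries were below all 4 WT libraries. The groups did not overlap, in either direction, for 30.6% of all genes tested in this tissue. The mean was 45.5 ± 2.05 CPM (SD, n = 4) for WT and 32.9 ± 3.02 CPM (SD, n = 4) for the knock-out, and the fitted level fell by 27.0%. The log2 fold change was -0.45 (SE 0.079, 95% interval -0.63 to -0.28, adjusted p = 0.00249), and DESeq2 gave an adjusted p of 2.59e-06. Leaving out each of the 8 libraries in turn kept the call, with adjusted p from 0.00182 to 0.00926. In this tissue 29.0% of the 15456 genes tested were called, with 14.1% higher and 14.9% lower, and 1 called gene of 9 is 11.1%. The study's further threshold, an absolute log2 fold change over 1, was not reached.

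Markers of several cell types moved with genotype in the gastrocnemius. The 10 skeletal muscle markers summed to 228400 to 272630 CPM in WT and to 146050 to 160980 CPM in Mtm1-/y libraries, with 8 of 10 called as lower and 2 as higher. All 13 macrophage markers were called as higher, from a sum of 62.1 to 106 CPM to a sum of 185 to 232 CPM. White adipocyte markers were called as higher for 6 of 8 genes and fibroblast markers for 4 of 7, 3 of 7 endothelial markers were called as lower, and 0 of 7 Schwann cell markers were called by edgeR (0 at an unadjusted p under 0.05). Of the markers tested, 3 of 5 cardiomyocyte genes were called as higher and 1 as lower, 1 of 11 hepatocyte genes as higher and 3 as lower, and 1 of 2 B cell genes as lower, while no T cell or neutrophil marker passed the filter. The summed cardiomyocyte markers nevertheless went down, from 6820 to 7794 CPM in WT to 654 to 2515 CPM in the knock-out, since Actc1, the cardiac actin, made up most of the sum and fell (log2 fold change -2.17, adjusted p = 0.00524). The 6 B cell markers summed to 60.0 to 83.8 CPM in WT and to 5.81 to 9.27 CPM in the knock-out. The part of these shifts in the lower Pip5k1c level was not tested.

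The stretch upstream of Pip5k1c is shown because this is the only 1 of the 9 genes that edgeR called between genotypes in the gastrocnemius. It runs from 250 to 11 bases before the RefSeq start on the plus strand (GRCm38.p6, chr10:81292713-81292952), and capitals mark 4 short motifs searched on both strands: the GC box GGGCGG, the CCAAT box CCAAT, the TATA box TATAAA and the E-box CANNTG.
Pip5k1c: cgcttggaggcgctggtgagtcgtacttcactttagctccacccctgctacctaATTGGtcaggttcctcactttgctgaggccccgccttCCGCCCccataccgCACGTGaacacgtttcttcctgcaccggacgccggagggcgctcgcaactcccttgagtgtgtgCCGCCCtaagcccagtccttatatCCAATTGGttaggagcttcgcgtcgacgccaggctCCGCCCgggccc
It holds 3 GC boxes, 3 CCAAT boxes and 2 E-boxes, one E-box overlapping a pair of CCAAT boxes on opposite strands, and no TATA box. Among the 32851 windows of the same 240 bases in the RefSeq table, 31.3% hold a GC box, 33.0% a CCAAT box, 12.1% a TATA box and 65.0% an E-box. These matches are a description of the sequence only.

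In the other 3 tissues Pip5k1c was not called. In diaphragm the WT libraries had 38.5, 35.3, 36.5 and 34.7 CPM and the knock-out libraries 32.0, 39.6 and 31.8 CPM. In heart the WT libraries had 51.0, 49.7, 47.5 and 62.4 CPM and the knock-out libraries 49.7, 54.4, 45.9 and 47.2 CPM. In liver the WT libraries had 38.9, 46.0 and 40.9 CPM and the knock-out libraries 43.0, 47.9, 46.8 and 42.2 CPM. The genotypes overlapped in each of these tissues, in the diaphragm through Mtm1-/y replicate 2 alone, at 39.6 CPM. That library had the highest hepatocyte marker sum of the diaphragm libraries, 45653 CPM, and the part of liver RNA in its Pip5k1c level was not tested. Leaving out each diaphragm library in turn gave effects from -0.18 to 0.01, with 0 calls. The log2 fold changes were -0.05 for diaphragm (95% interval -0.32 to 0.22), -0.10 for heart (-0.33 to 0.12) and 0.09 for liver (-0.14 to 0.32).

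The genotype effects were then compared between tissues in 1 fit of all 30 libraries. The effect on Pip5k1c differed between liver and gastrocnemius by 0.57 on the log2 scale (SE 0.13, 95% interval 0.29 to 0.84, adjusted p = 0.0143), and 4.99% of 18498 genes were called in this contrast, 2.47% as higher. It was called in each of the 30 fits that left out 1 library, with adjusted p from 0.00748 to 0.0482. The difference of heart minus gastrocnemius was 0.37 (adjusted p = 0.0634), and it was called without WT heart replicate 4 (adjusted p = 0.0242), without Mtm1-/y diaphragm replicate 2 (adjusted p = 0.0448) and by DESeq2 (adjusted p = 0.0147). The difference of diaphragm minus gastrocnemius was 0.39 (adjusted p = 0.215), with a DESeq2 adjusted p of 0.0449. These 3 contrasts share the gastrocnemius libraries, and which tissues come from the same mouse is not given by the labels. None of the other 8 genes was called in them by edgeR, beside 9.38% of all genes called for heart, 0.449% for diaphragm and 4.99% for liver. At an unadjusted p under 0.05 there were 3, 1 and 3 of the 9 genes, beside 25.9%, 11.9% and 19.2% of all genes.

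The mean of the 4 genotype effects was also tested, and edgeR called none of the 9 genes, against 4.78% of all genes. Pip5k1c had the only unadjusted p under 0.05 (0.0086, beside 19.1% of all genes), with a mean effect of -0.13 (95% interval -0.23 to -0.04, adjusted p = 0.0999). DESeq2 called it (adjusted p = 0.0387), and so did edgeR without Mtm1-/y diaphragm replicate 2 (adjusted p = 0.0273).

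**Figure D2:**
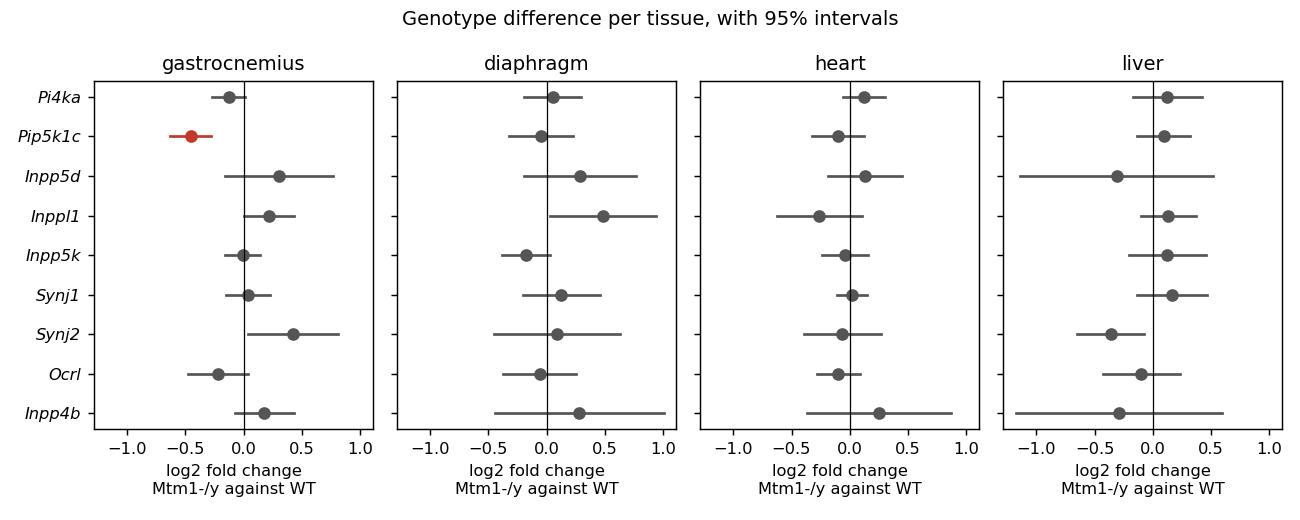
Log2 fold change of Mtm1-/y against WT (horizontal axis) for each of the 9 genes in each tissue, with 95% intervals as lines; red marks an adjusted p under 0.05. Pip5k1c in the gastrocnemius, at -0.45, is the only red point.

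Pi4ka, the other kinase, had a gastrocnemius level of 36.8, 35.8, 37.0 and 34.2 CPM in WT and of 33.7, 34.1, 31.4 and 31.3 CPM in Mtm1-/y libraries. The groups did not overlap, which was also true of 30.6% of all genes tested in this tissue. The log2 fold change of -0.13 (95% interval -0.27 to 0.01) was not called (adjusted p = 0.152). In the diaphragm, heart and liver it was 0.05, 0.12 and 0.12, with intervals that reached no further than -0.19 and 0.42.

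The SHIP phosphatases Inpp5d and Inppl1 act on the trisphosphate made by class I PI 3-kinases. Inppl1, the broadly expressed SHIP2, was at 193, 191, 176 and 185 CPM in WT and at 242, 238, 177 and 202 CPM in Mtm1-/y gastrocnemius. These groups overlapped through Mtm1-/y replicate 3, and the log2 fold change was 0.22 (95% interval 0.00 to 0.44, adjusted p = 0.119). Without that replicate it was 0.31 and was called (adjusted p = 0.0209). In the diaphragm Inppl1 was at 156, 179, 221 and 151 CPM in WT and at 240, 199 and 292 CPM in Mtm1-/y libraries. The log2 fold change there was 0.48 (95% interval 0.03 to 0.94), with an unadjusted p of 0.0389 and an adjusted p of 0.431. The highest library of each genotype was the one with the lowest sum of hepatocyte markers, and leaving out 773 liver-enriched genes gave 0.49 (adjusted p = 0.334). Any Inppl1 reads from liver RNA stayed in that fit, so the part of liver RNA in the Inppl1 level was not tested. The heart effect was -0.26 (-0.62 to 0.10) and the liver effect 0.13 (-0.10 to 0.37), neither called. Inppl1 shares 1204 of its exon bases with the antisense gene Gm10602, which was at 0.84 to 5.19 CPM, and whether the counting used strand is not given in the sources used here.

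Inpp5d encodes SHIP1, the SHIP form of blood cells. It was at 5.98, 3.16, 5.00 and 4.20 CPM in WT and at 4.91, 4.66, 6.81 and 6.16 CPM in Mtm1-/y gastrocnemius. The groups overlapped, and the log2 fold change of 0.30 (95% interval -0.16 to 0.77) was not called (adjusted p = 0.293). In the same libraries Csf1r, a receptor of macrophages, was at 8.72 to 16.0 CPM in WT and at 20.5 to 24.8 CPM in Mtm1-/y, with a log2 fold change of 1.06 (adjusted p = 0.00226). Ptprc, the CD45 antigen of leukocytes, had a log2 fold change of 1.96 (adjusted p = 0.00011). Inpp5d in the liver was at 4.74, 4.83 and 4.12 CPM in WT and at 4.20, 1.43, 3.99 and 5.12 CPM in Mtm1-/y libraries. The low library, Mtm1-/y replicate 2, also had the lowest liver sum of macrophage markers, 77.5 CPM against 241 to 332 CPM in the others. That library also had the lowest liver sums of endothelial (98.0 CPM), fibroblast (160 CPM), B cell, T cell, neutrophil and Schwann cell markers. Its skeletal muscle marker sum was the highest of the liver libraries, 155 CPM. The part of these differences in its Inpp5d level was not tested. The liver effect was -0.31 with Mtm1-/y replicate 2 and -0.05 without it, and was called in neither case.

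**Figure D3:**
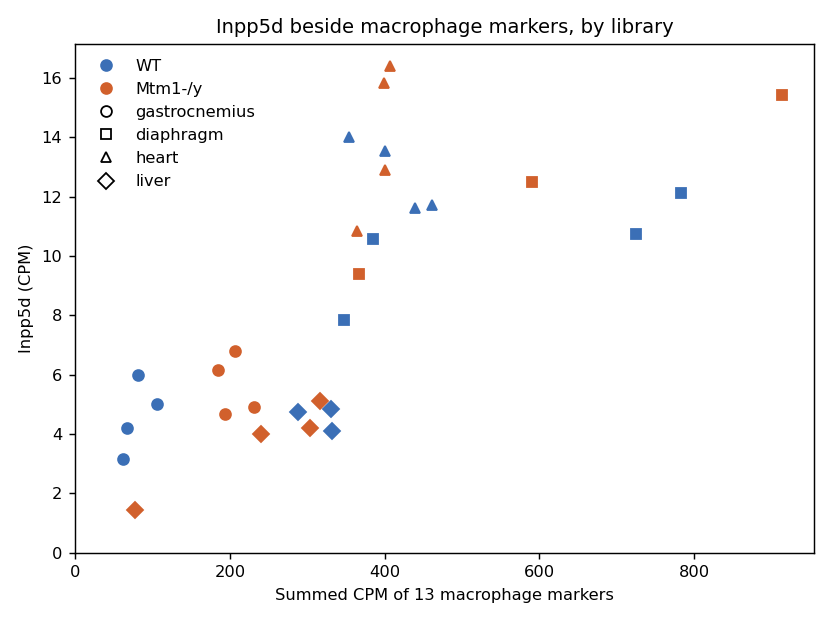
Inpp5d level in CPM (vertical axis) against the summed CPM of 13 macrophage markers (horizontal axis), 1 point per library; color gives the genotype and shape the tissue. The Mtm1-/y gastrocnemius libraries lie to the right of the WT ones, at 185 to 232 against 62.1 to 106 CPM, while Inpp5d overlaps between them.

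The stretch upstream of Inpp5d is shown beside that of Pip5k1c because this gene has the level most tied to blood cells by its known role (GRCm38.p6, chr1:87620062-87620301, plus strand, the same 4 motifs in capitals).
Inpp5d: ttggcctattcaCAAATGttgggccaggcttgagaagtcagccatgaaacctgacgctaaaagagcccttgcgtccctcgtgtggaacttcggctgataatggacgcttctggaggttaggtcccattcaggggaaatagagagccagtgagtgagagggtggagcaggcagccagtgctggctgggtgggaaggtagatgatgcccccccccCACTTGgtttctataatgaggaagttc
It holds 2 E-boxes and none of the other motifs, and its GC content was 54.2% against 62.1% for the Pip5k1c stretch.

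Inpp5k, a 5-phosphatase of the endoplasmic reticulum named for skeletal muscle and kidney, overlapped between genotypes in the gastrocnemius, at 48.1, 49.7, 48.4 and 52.4 CPM in WT and 47.7, 45.7, 49.1 and 53.7 CPM in Mtm1-/y. Its log2 fold change was -0.01 (95% interval -0.16 to 0.14). In the diaphragm it was at 42.6, 47.7, 49.0 and 48.3 CPM in WT and at 40.6, 40.6 and 41.3 CPM in Mtm1-/y libraries. The groups did not overlap, as for 9.94% of all genes in this tissue, and the log2 fold change of -0.18 was not called (adjusted p = 0.544). Heart and liver effects were -0.04 and 0.12.

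The synaptojanins Synj1 and Synj2 combine a Sac domain with a 5-phosphatase and act when clathrin coats are shed. Synj1 had log2 fold changes of 0.04, 0.13, 0.02 and 0.17 in gastrocnemius, diaphragm, heart and liver, none called, and in the heart its interval was -0.11 to 0.14. Synj2 in the gastrocnemius was at 58.5, 35.3, 49.1 and 66.9 CPM in WT and at 74.0, 65.6, 59.9 and 80.2 CPM in Mtm1-/y libraries. The groups overlapped, with a log2 fold change of 0.43 (95% interval 0.04 to 0.81), an unadjusted p of 0.0332 and an adjusted p of 0.0898. Without WT replicate 4 it was called (0.55, adjusted p = 0.0455). In the liver Synj2 was at 17.4, 18.1 and 15.01 CPM in WT and at 13.6, 12.8, 12.0 and 14.3 CPM in Mtm1-/y libraries. All Mtm1-/y libraries were below all WT ones, as for 5.56% of genes tested in the liver in either direction, and the log2 fold change of -0.36 was not called (adjusted p = 0.969). The liver minus gastrocnemius difference for Synj2 was -0.77 (95% interval -1.32 to -0.22, adjusted p = 0.0974).

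Ocrl, the endosomal and Golgi 5-phosphatase mutated in Lowe syndrome, was at 24.6, 28.9, 29.1 and 25.9 CPM in WT and at 19.4, 20.7, 25.3 and 26.8 CPM in Mtm1-/y gastrocnemius. Its effect of -0.22 (95% interval -0.48 to 0.04) was not called (adjusted p = 0.175), and it was -0.06, -0.10 and -0.10 in diaphragm, heart and liver. Inpp4b, the 4-phosphatase, was at 30.3, 25.9, 25.7 and 27.4 CPM in WT and at 30.8, 37.7, 28.7 and 25.7 CPM in Mtm1-/y gastrocnemius, with an effect of 0.18 (-0.08 to 0.43). Its diaphragm and heart effects, 0.28 and 0.25, had wide intervals, -0.45 to 1.00 and -0.37 to 0.87.

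In all, edgeR called 0 of the 9 genes for diaphragm, 0 for heart and 0 for liver, where 0.0119%, 0.00656% and 0.0% of all genes were called, and DESeq2 called 0 in each as well. With DESeq2, the paper lists more changed genes in diaphragm and heart than the 2 and 1 that edgeR called here. An absent call in diaphragm or heart therefore does not show an absent change either. At an unadjusted p under 0.05 there were 1 (Inppl1) for diaphragm, 0 for heart and 1 (Synj2) for liver. These stand beside 10.8%, 8.88% and 4.24% of all genes, and the gastrocnemius had 3, beside 41.6%. The median log2 fold change of the 9 genes across gastrocnemius, diaphragm, heart and liver was 0.04, 0.09, -0.04 and 0.09, beside medians over all genes tested of 0.02, -0.01, 0.00 and 0.01. The spread between replicates, as edgeR's common coefficient, was 0.394 for diaphragm and 0.171 to 0.229 for the other tissues.

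The enzymes around these 9 were taken from 8 lists with 75 matched genes, of which 72 were tested in the gastrocnemius. There 14 were called as higher and 11 as lower, 34.7% in all. Of all genes tested 29.0% were called, 14.1% as higher and 14.9% as lower, and the counts per list below stand beside these shares. Falling genes included the 5-phosphatases Inpp5a, from 139 to 105 CPM (log2 fold change -0.39, adjusted p = 0.00527), and Inpp5b, from 22.2 to 18.2 CPM (-0.28, adjusted p = 0.0335), and 2 of 7 genes of that list fell and 0 rose. In the list of the other PI 4-kinases and the proteins that hold Pi4ka at the plasma membrane, 2 of 10 fell, the scaffolds Ttc7b (-0.30, adjusted p = 0.00879) and Ttc7 (-0.37, adjusted p = 0.0159), and 2 rose. The other PIP kinases had 0 of 5 called by edgeR and the other 3- and 4-phosphatases 0 of 4, with 2 and 1 at an unadjusted p under 0.05.

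Phosphatidylinositol synthesis and transfer had the largest share of called genes among these lists, with 4 of 9 lower and 1 higher. The transfer proteins Pitpnc1, from 124 to 68.4 CPM (-0.85, adjusted p = 0.000367), and Pitpna, from 204 to 138 CPM (-0.55, adjusted p = 0.00231), led the falls. Among the phospholipases C, which cleave the bisphosphate that Pip5k1c makes, 1 of 11 fell and 3 rose. Plcd4 fell from 279 to 119 CPM (-1.22, adjusted p = 0.000324), and Plcb2, an isoform of blood cells, rose from 0.247 to 0.832 CPM (1.75, adjusted p = 0.00866).

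Of the class I PI 3-kinases and their adaptors, 4 of 10 rose and 0 fell, beside 14.1% and 14.9% of all genes tested. The adaptors Pik3ap1 (1.46, adjusted p = 0.00391) and Pik3r5 (1.15, adjusted p = 0.00749), both known from leukocytes, were at most 1.95 CPM in any gastrocnemius library. In the same libraries all 13 macrophage markers were higher, as given above, and their part in these rises was not tested. Among 16 endocytic partners tested 4 rose and 2 fell. Tln2, the talin of striated muscle that binds Pip5k1c products at adhesions, fell from 218 to 131 CPM (-0.73, adjusted p = 0.00037), and the clathrin light chain Clta rose from 28.3 to 36.3 CPM (0.37, adjusted p = 0.00784).

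The count of 25 called genes was 16 without WT gastrocnemius replicate 2 and 9 in a fit of all 30 libraries. In that fit the counts per list were also lower, with 1 in place of 2 falling 5-phosphatases, 0 rising and 0 falling genes of the PI 4-kinase list, 1 rising class I PI 3-kinase gene, 2 falling genes of synthesis and transfer, 1 rising phospholipase C, and 1 rising and 1 falling endocytic partner. Leaving out WT replicate 2 gave 1 falling 5-phosphatase, 1 rising gene of the PI 4-kinase list, 1 rising phospholipase C, and 2 rising and 1 falling endocytic partners. The rising genes of the PI 4-kinase list were 1 without any of the 8 libraries but Mtm1-/y replicate 4, and its falling genes were 4 without Mtm1-/y replicate 2. The falling endocytic partners were 1 also without WT replicate 3 or 4 or Mtm1-/y replicate 1, 3 or 4, and the rising ones 2 also without WT replicate 3. The falling 5-phosphatases were 1 also without WT replicate 3 or Mtm1-/y replicate 1 or 4. A list count of 0 became 1 for rising 5-phosphatases without Mtm1-/y replicate 3, for rising 3- and 4-phosphatases without WT replicate 3 or Mtm1-/y replicate 2, for falling PIP kinases without Mtm1-/y replicate 1, and for falling class I PI 3-kinase genes without Mtm1-/y replicate 2. In the diaphragm, heart and liver edgeR called 0 of 71, 71 and 65 list genes, with 3, 5 and 2 at an unadjusted p under 0.05, and DESeq2 called 1, 0 and 0.

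**Figure D4:**
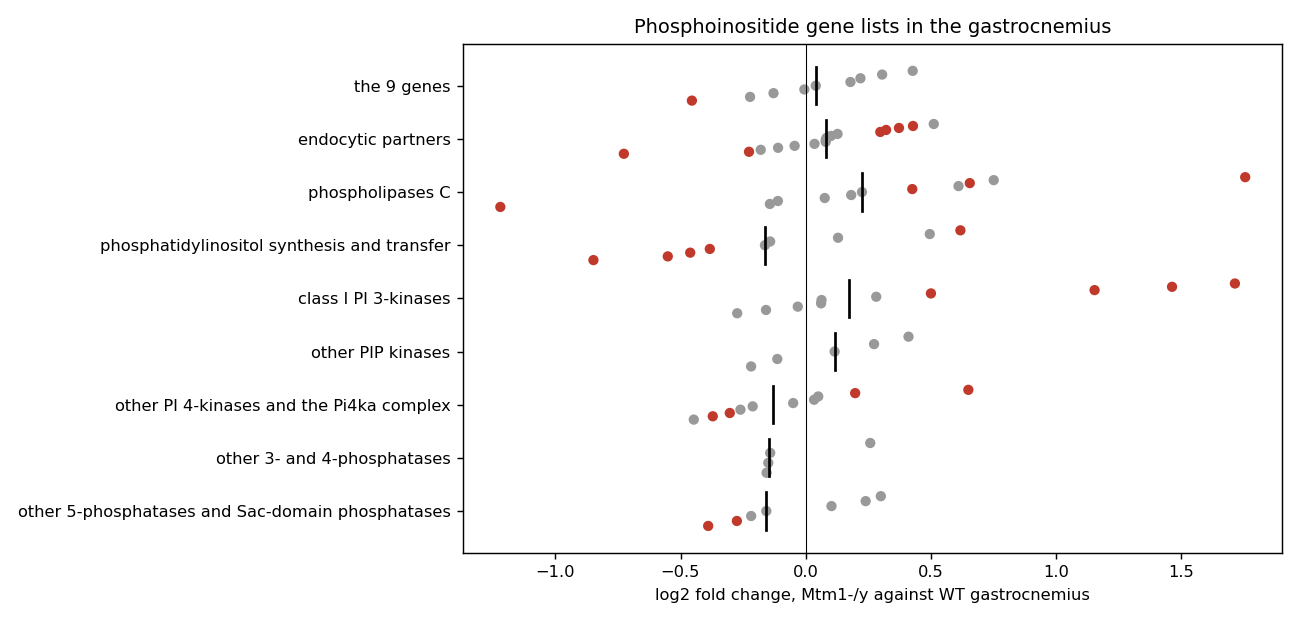
Log2 fold change in the gastrocnemius (horizontal axis) of the genes of the 8 lists and of the 9 genes (rows); points in red had an adjusted p under 0.05 and black bars are list medians. Red points are 1 of the 9 genes and 25 of the 72 list genes.

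Levels were then compared between tissues in the WT libraries, where 7 of 9 genes were called between liver and gastrocnemius, 8 between liver and diaphragm and 9 between liver and heart, where 79.5%, 76.1% and 76.4% of the 17725 genes tested were called. All 9 were lower in the liver than in the heart, as were 40.8% of all genes. Between heart and diaphragm 4 were called, between heart and gastrocnemius 4, and between diaphragm and gastrocnemius 3, beside 51.7%, 61.3% and 54.4% of all genes. These 6 contrasts share libraries, and mice that gave several tissues could not be taken into account. Among the 3 contrasts without liver, the widest log2 difference of the 9 genes was 1.43, for Inpp5d between heart and gastrocnemius.

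Inpp4b had the widest range over tissues. It was at 0.747, 1.06 and 0.92 CPM in the WT liver libraries (19 to 26 counts each) and at 25.7 to 30.3 CPM in gastrocnemius, 34.8 to 65.2 CPM in diaphragm and 18.4 to 52.4 CPM in heart. The liver level was 31.8-fold lower than that of gastrocnemius, 49.1-fold lower than that of diaphragm and 44.9-fold lower than that of heart (log2 differences of -4.99, -5.62 and -5.49, SE 0.39 each, adjusted p = 3.23e-08, 2.04e-08 and 1.7e-08). The other 3 tissues were not told apart by the test. Diaphragm minus gastrocnemius was 0.63 (adjusted p = 0.0582), and it was called without WT diaphragm replicate 1 or 4 or WT heart replicate 1 or 4, and in the fit of all 30 libraries. WT heart replicate 4, the library that stood apart from the other WT hearts as given above, had the low heart value of 18.4 CPM. Without it the heart minus gastrocnemius difference was 0.75 (adjusted p = 0.00283) in place of 0.50 (adjusted p = 0.116).

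The stretch upstream of Inpp4b is shown for its low level in liver (GRCm38.p6, chr8:81342312-81342551, plus strand, the same motifs in capitals).
Inpp4b: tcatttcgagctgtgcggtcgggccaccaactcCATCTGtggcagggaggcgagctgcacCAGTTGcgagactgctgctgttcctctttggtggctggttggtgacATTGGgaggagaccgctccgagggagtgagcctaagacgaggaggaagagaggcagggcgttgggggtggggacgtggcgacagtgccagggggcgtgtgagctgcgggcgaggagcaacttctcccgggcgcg
It holds 1 CCAAT box and 2 E-boxes, and no GC box or TATA box in these 240 bases.

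Pi4ka was lowest in gastrocnemius and not in liver, with heart at 77.2 ± 6.60 CPM (n = 4), liver at 53.1 ± 6.25 CPM (n = 3), diaphragm at 39.4 ± 3.23 CPM (n = 4) and gastrocnemius at 36.0 ± 1.28 CPM (n = 4). Heart was above gastrocnemius by 1.06 (adjusted p = 2.3e-07) and above liver by 0.58 on the log2 scale (liver minus heart -0.58, adjusted p = 9.04e-05), and liver was above diaphragm by 0.39 (adjusted p = 0.00226). Diaphragm and gastrocnemius were not told apart (0.10, 95% interval -0.10 to 0.29). It was the only 1 of the 9 genes that was higher in liver than in gastrocnemius. Serpind1, a liver gene, lies inside Pi4ka on the opposite strand with 0 shared exon bases, at 705 to 1069 CPM in liver libraries.

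Pip5k1c had the narrowest range, 1.45-fold, with heart at 52.6, gastrocnemius at 45.5, liver at 41.9 and diaphragm at 36.3 CPM. No neighbors in this order were called (adjusted p of 0.113, 0.0827 and 0.135), but each pair was called under 1 alternative. Liver minus gastrocnemius was called without WT liver replicate 2 (-0.27, adjusted p = 0.0367), heart minus gastrocnemius in the fit of all 30 libraries (0.21, adjusted p = 0.0492), and liver minus diaphragm with DESeq2 size factors (0.23, adjusted p = 0.0449). Heart was above diaphragm by 0.53 (adjusted p = 0.00025) and above liver (liver minus heart -0.37, adjusted p = 0.00359). Diaphragm was below gastrocnemius (-0.36, adjusted p = 0.00395), a call lost without WT diaphragm replicate 4 (-0.26, adjusted p = 0.0535).

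Inpp5d was highest in heart, at 11.6 to 14.0 CPM, and in diaphragm, at 7.84 to 12.1 CPM, which were not told apart (0.29, adjusted p = 0.172). Gastrocnemius, at 3.16 to 5.98 CPM, and liver, at 4.12 to 4.83 CPM, were not told apart either (-0.08, 95% interval -0.51 to 0.34). Heart was above gastrocnemius by 1.43 (adjusted p = 1.01e-05) and diaphragm by 1.13 (adjusted p = 0.000128). WT macrophage marker sums were 353 to 461 CPM in heart, 348 to 783 CPM in diaphragm, 62.1 to 106 CPM in gastrocnemius and 288 to 332 CPM in liver. Liver thus had a macrophage sum above that of gastrocnemius with an overlapping Inpp5d level.

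Ocrl differed among the muscles, with gastrocnemius at 24.6 to 29.1 CPM, heart at 22.5 to 27.9 CPM, diaphragm at 13.8 to 15.9 CPM and liver at 10.5 to 12.4 CPM. Gastrocnemius and heart were not told apart (-0.16, adjusted p = 0.132), although the difference was called without WT heart replicate 4 (-0.21, adjusted p = 0.0474). Diaphragm was below gastrocnemius by 0.91 on the log2 scale (diaphragm minus gastrocnemius -0.91, adjusted p = 4.28e-06), and liver was below diaphragm (-0.40, adjusted p = 0.00236). WT diaphragm replicate 3, with the lowest hepatocyte marker sum, had an Ocrl level of 15.5 CPM, inside the range of the other diaphragm libraries. The part of liver RNA in the diaphragm level of Ocrl was not tested.

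The remaining 4 genes were all lowest in liver. Inppl1 was at 190 in heart, 186 in gastrocnemius and 177 CPM in diaphragm, not told apart, and at 69.8 CPM in liver, with log2 differences from -1.38 to -1.49. Synj2 was at 70.5, 69.0 and 52.5 CPM in heart, diaphragm and gastrocnemius, not told apart, and at 16.8 CPM in liver (-1.71 to -2.10). For Synj2, heart minus gastrocnemius was called without WT gastrocnemius replicate 4 (0.52, adjusted p = 0.0462) and in the fit of all 30 libraries (0.43, adjusted p = 0.0451). Synj1 was higher in heart, at 29.1 CPM, than in gastrocnemius at 23.7 CPM (0.26, adjusted p = 0.0125) and diaphragm at 22.8 CPM (0.35, adjusted p = 0.00267), and was at 16.2 CPM in liver. Inpp5k stood at 49.7 CPM in gastrocnemius, 46.9 CPM in diaphragm, 44.0 CPM in heart and 26.7 CPM in liver. Heart was below gastrocnemius for Inpp5k (-0.21, adjusted p = 0.018), a call lost without WT gastrocnemius replicate 4 (adjusted p = 0.0513) or WT heart replicate 1 (adjusted p = 0.0727) and in the fits of all 30 libraries (0.119) and with no filter (0.123). Heart minus diaphragm for Inpp5k was not called (-0.09, adjusted p = 0.275), except without WT diaphragm replicate 1 (adjusted p = 0.0397) or WT heart replicate 4 (adjusted p = 0.031).

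Compared per kilobase of exon, Inppl1 was the most abundant of the 9 in each WT tissue, at 29.1, 27.6, 29.8 and 10.9 CPM per kilobase in gastrocnemius, diaphragm, heart and liver. Inpp5d was the least abundant in gastrocnemius, diaphragm and heart, at 0.603, 1.36 and 1.67 CPM per kilobase. In the liver Inpp4b was last, at 0.0697 CPM per kilobase. With the longest transcript as the length, the first and last places were the same but the levels were higher. Inpp5d was then at 0.929, 2.09 and 2.57 CPM per kilobase in gastrocnemius, diaphragm and heart, and Inpp4b in liver at 0.113 CPM per kilobase.

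**Figure D5:**
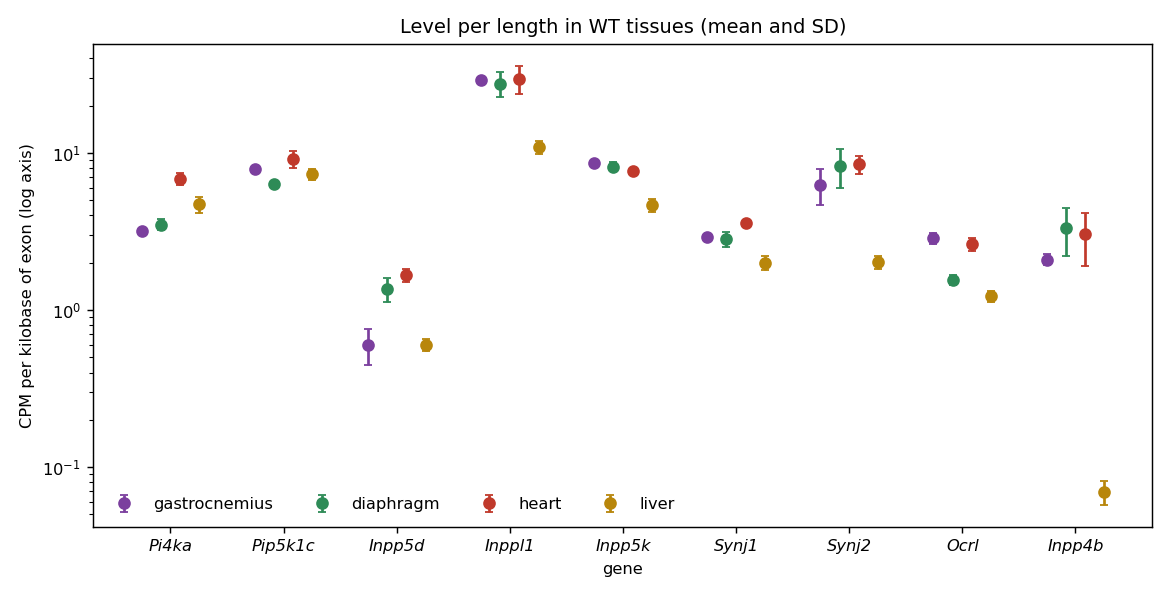
WT level per kilobase of exon (log vertical axis) of each gene in the 4 tissues, as mean and SD of 3 or 4 libraries. Inppl1 is highest throughout and Inpp4b in liver lowest, at 0.0697 CPM per kilobase.

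The genes whose log2 CPM followed each of the 9 most closely over the 30 libraries were found among 14096 genes whose mean level reached 1 CPM. These correlations describe mostly the tissues, since libraries of 1 tissue share their level. Inpp4b followed the creatine transporter Slc6a8 and Lynx1 (r = 0.99 and 0.99), and Synj2 followed Git1 and Fbxw17 (r = 0.97 and 0.97). Inpp5d followed Ms4a6b and Cyba (r = 0.97 and 0.95), Inppl1 followed Casc4 and Tspan5 (0.97 and 0.96), and Inpp5k followed the mitochondrial carrier Ucp3 and Arl2 (0.95 and 0.95). Pi4ka followed Magi3 and Rock1 (0.96 and 0.96), Ocrl followed Atp8a1 and Gpatch8 (0.96 and 0.95), and Synj1 followed Tmco3 and Fam20b (0.95 and 0.95). Pip5k1c was the least closely followed, by Laptm4b (r = 0.89) and 4430402I18Rik (r = 0.86), and with group means taken off its closest genes were Tmc6 (r = 0.83) and Ptch1 (r = 0.80). Among the 36 pairs of the 9 genes, Inpp4b and Synj2 were most alike over all libraries (r = 0.96), and with group means taken off Synj1 and Pi4ka were (r = 0.56).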

How the data were processed

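Whole tissues were sequenced as 30 poly(A) libraries. The deposited values are raw read counts per gene: the authors used cutadapt 1.10 for trimming, STAR 2.5.3a for alignment (mm10), and counted uniquely aligned, unambiguous reads with HTSeq 0.6.1p1 (Ensembl 96, union mode, strand setting not given in the sources used here), so reads over 2 genes were dropped. Totals were 24873817 to 44289343 counts per library, and intervals cover the spread between libraries only. Coordinates come from GENCODE M21.

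Groups followed the labels. Each tissue was fitted alone in R 4.3.3 with edgeR 4.0.16 (filterByExpr at a minimum count of 10, TMM, quasi-likelihood F test, Benjamini-Hochberg over all genes tested), called at an adjusted p under 0.05. Tissue contrasts used all 30 libraries or the 15 WT libraries. DESeq2 1.42.0 and limma 3.58.1 voom were alternatives, with other scaling, no filter, a replicate block and each library left out. Correlations used log2 CPM with a prior count of 2. The fits were tested on simulated data. No 2 replicates were near-identical. Whether same-numbered WT and Mtm1-/y libraries of a tissue are paired was checked by correlating their deviations from group means. The labels do not give which tissues come from the same mouse. This was not checked, and the contrasts between tissues treated all libraries as independent. The 9 genes, the 8 pathway lists and the marker lists were chosen with earlier results of these data known. Named genes are the 9, Mtm1, the 2 smallest p per list among genes called in the gastrocnemius, the 2 most alike genes for each of the 9, and leading markers; Actc1, Ptprc, Gm10602 and Serpind1 were added after their values were seen.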

Additional observations from a re-analysis of the deposited data

Results flagged for a closer look

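In WT diaphragm, replicate 3 had an Inpp4b level of 65.2 CPM, against 34.8 to 37.6 CPM in the other 3 libraries, a gap of 0.91 of the group's range beside a critical value of 0.829 for 4 libraries. It was the only such library among 54 sets of 4 values examined for the 9 genes, and chance alone would mark about 1 in 20. The same library had the lowest hepatocyte marker sum of the diaphragm libraries, 529 CPM, and the part of liver RNA in the Inpp4b value was not tested. Without it, Inpp4b in diaphragm minus gastrocnemius was 0.46 (adjusted p = 0.11) in place of 0.63.

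The genotype effect on Pip5k1c differed between liver and gastrocnemius by 0.57 on the log2 scale, tested as an interaction in 1 fit (adjusted p = 0.0143). The level was lower in all 4 Mtm1-/y gastrocnemius libraries than in the WT ones, while the liver genotypes overlapped. In the gastrocnemius, 30.6% of all genes tested had groups that did not overlap. Its adjusted p ranged from 0.00039 to 0.0482 over the alternatives, the lowest by DESeq2 and the highest without WT liver replicate 1.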

How the results depend on the processing

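Of the recomputed counts of called members of the 9 genes, 369 stayed within 1.5 times the reported count and 18 did not. Part of those that stayed were 0 in both fits, as in the diaphragm, heart and liver. Their agreement says little about how firm the results are. Of those of the pathway lists, 840 did and 40 did not, and 36 levels per kilobase moved by more than the spread between replicates with the longest transcript as the length. With the study's threshold on the log2 fold change as well, the count was 0 for genes lower in the gastrocnemius and 0 for liver minus gastrocnemius, and among WT tissues 1 for diaphragm against gastrocnemius, 2 for heart against gastrocnemius, 0 for heart against diaphragm, 4 for liver against gastrocnemius, 4 for liver against diaphragm and 5 for liver against heart. DESeq2 gave 1 for the common effect, 1 for heart minus gastrocnemius and 1 for diaphragm minus gastrocnemius, and DESeq2 size factors in edgeR gave 1 for heart minus gastrocnemius, Pip5k1c each time. Leaving out 1 library gave 0 to 1 for genes higher in the gastrocnemius (Inppl1 or Synj2), 0 to 1 for the common effect and 0 to 1 for heart minus gastrocnemius. The cause of these moves was not tested, other than that a threshold added to another can only lower a count. With the replicate block the count of genes higher in the gastrocnemius was 1 (Synj2, log2 fold change 0.45). The rising genes of the PI 4-kinase list and the falling endocytic partners were then 1 each in place of 2. No other count of the 9 genes moved by over 1.5 times. The check of same-numbered WT and Mtm1-/y libraries within a tissue gave 14 correlations from -0.64 to 0.46, 5 of them over 0.1. With groups this small it cannot exclude pairing. Scaling by size factors moved the median of all genes by at most 0.07. Of the recomputed fold changes, 2797 kept their side of the threshold, 24 gained a call, 5 lost one and no called one changed sign. The groups of 3 libraries in diaphragm and liver, and the coefficient of variation of 0.394 in the diaphragm, limit what could be seen there.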
